A study of Homo sapiens with 6 samples.

Results

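RNA polymerase III (Pol III) is the enzyme that transcribes tRNA genes. Of its own subunits 8 are described here with its repressor MAF1, in leukaemia cells that received guides against METTL1, an enzyme that methylates tRNA. The 9 genes, POLR3A, POLR3B, POLR3C, POLR3D, POLR3E, POLR3F, POLR3G, POLR3K and MAF1, were found by symbol among the 18806 genes of the deposited table, and each had 1 row. All groups came from a single Cas9 clone of Mono-Mac-6, which is an acute myeloid leukaemia cell line with the MLL-AF9 fusion. By lentivirus the clone received a control guide (sgNS) or 1 of 2 METTL1 guides (sgMETTL1.3, sgMETTL1.6), with 2 libraries a group and 6 in all. The column names of all 6 libraries also include the code EV, for which no explanation was found. It is therefore unknown whether the cells of every group held a further construct besides the guide. Every group was kept under hygromycin B at 200 µg/ml and blasticidin at 10 µg/ml, and was harvested 8 to 10 days after virus. Whether replicates were grown apart is not in the labels, so p-values rest on the spread among the 6 libraries alone, and that spread may be technical.

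Pol III works in the nucleus on short genes: those of nuclear-encoded tRNAs, the smallest ribosomal RNA and several small non-coding RNAs. A general factor, TFIIIC, recognises sequences inside a tRNA gene, brings in TFIIIB beside the start, and TFIIIB recruits the polymerase. MAF1 binds the polymerase and blocks it when nutrients are short. The kinase mTORC1 phosphorylates MAF1 and so keeps it away when nutrients are plentiful. Poly(A)-selected libraries read the mRNAs of these proteins and not the tRNAs themselves, and MAF1 is controlled largely by phosphorylation, which mRNA does not show. Of 16 listed Pol III transcripts, 0 were matched to a row of the table.

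Levels are in TPM, a transcript's share of all transcripts after correction for length, so levels can be compared between genes. The scale does not carry how deeply a library was sequenced; depth is unknown here, and values come without counting intervals. Differences are log2 changes of TPM + 1, tested with limma over the 10911 genes whose mean reached 1 TPM, and a gene was called at a Benjamini-Hochberg adjusted p under 0.05. All 9 genes passed that filter. METTL1 mRNA stood at 15.4 and 13.9 TPM in the sgNS libraries, 18.3 and 16.6 TPM in those labelled sgMETTL1.3 and 11.2 and 11.7 TPM in those labelled sgMETTL1.6. METTL1 was thus above control in the libraries labelled sgMETTL1.3, and every direction below is of the libraries as labelled. A Cas9 cut need not lower mRNA, so this checks neither the cut nor the protein. Of 12 monocytic myeloid markers, 9 reached a mean of 1 TPM, led by LYZ, and CD14, CSF1R and CD4 did not. Their summed level was 12940 to 13450 TPM in the sgNS libraries, 12607 to 12652 with sgMETTL1.3 and 10950 to 11299 with sgMETTL1.6, and LYZ made up most of it. Gene by gene, 5 of the 9 fell with sgMETTL1.3 (FCGR1A, ITGAM, MPO, ITGB2 and CD68), beside 24.2% of all genes tested. There 2 rose (SPI1 and CEBPA), beside 34.3%. With sgMETTL1.6 those 5 and LYZ fell, beside 25.3% of all genes tested, and CEBPA rose, beside 25.7%. Mean TPM was 0.560 and 0.521 of control for FCGR1A and 0.499 and 0.618 for ITGAM, in the order of the guides, and 1.28 and 1.17 for CEBPA. CD33 was called with neither guide. Of 11 markers of other cell types, 10 were under 1 TPM on average. CD3E, MS4A1 and HBB were among those listed at 0 in every library, and PECAM1 was the exception. PECAM1 held 72.2 ± 2.21 TPM with sgNS, 99.3 ± 1.07 with sgMETTL1.3 (log2 change 0.45, adjusted p = 1.26e-06) and 69.8 ± 1.73 with sgMETTL1.6 (-0.05, adjusted p = 0.36), and the guides differed by -0.50 (adjusted p = 6.3e-06; SD, n = 2). The part of these marker shifts in the results was not tested, and in bulk RNA fewer cells of a type and less RNA per cell cannot be told apart.

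Over both guides, 5 of the 9 genes rose (POLR3A, POLR3B, POLR3F, POLR3G and POLR3K) and 2 fell (POLR3C and MAF1), while POLR3D and POLR3E did not pass the test. Among all genes tested 32.6% rose and 26.8% fell, so 59.4% were called either way. In 4 of the 9 (POLR3A, POLR3F, POLR3G and POLR3K) the guide and control libraries did not overlap, beside 60.2% of all genes tested. The median log2 change of the 9 genes was 0.15, beside 0.02 for all genes tested, and their values ran from -0.15 to 0.35. Every change was therefore small, well under a doubling. The 2 falls passed the test with sgMETTL1.6 and not with sgMETTL1.3 (POLR3C -0.04, adjusted p = 0.481, and MAF1 -0.04, adjusted p = 0.434). The subunits did not move as 1 block over both guides: POLR3C fell, and POLR3F and POLR3G of the same subcomplex rose. Without sgNS replicate 2 only 3 of the 9 rose and 0 fell, and without sgMETTL1.3 replicate 1 the rise of POLR3B and the fall of MAF1 were lost, leaving 1 gene lower.

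**Figure D1:**
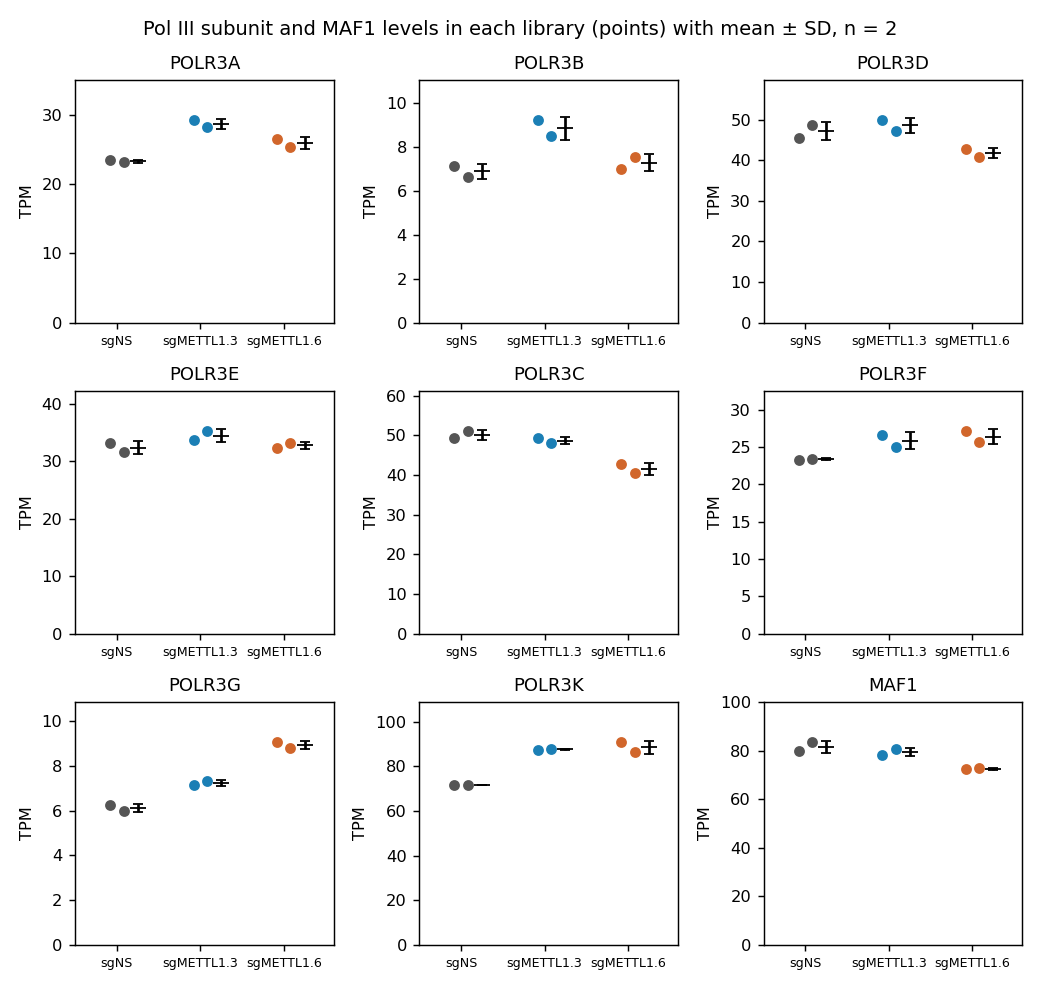
TPM (vertical axis, from 0) of each of the 9 genes in the libraries of sgNS, sgMETTL1.3 and sgMETTL1.6. Points are single libraries and the bar beside them is the mean ± SD (n = 2); POLR3G and POLR3K are higher in all 4 METTL1 guide libraries than in both controls, and POLR3C and MAF1 are lowest with sgMETTL1.6.

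POLR3A and POLR3B code for the largest and second-largest subunits, which together form the catalytic core. POLR3A (ENSG00000148606.12, minus strand of chromosome 10, 77969251 to 78029545 in GRCh38) held 23.4 and 23.2 TPM with sgNS, 29.3 and 28.2 TPM with sgMETTL1.3 and 26.6 and 25.4 TPM with sgMETTL1.6. All 4 guide libraries lay above both controls, and those of sgMETTL1.3 lay highest. Its log2 change was 0.29 ± 0.052 (SE) with sgMETTL1.3 (adjusted p = 0.000362) and 0.15 ± 0.052 with sgMETTL1.6 (adjusted p = 0.0273). The second of these calls was lost without sgNS replicate 1 (adjusted p = 0.0815), sgNS replicate 2 (adjusted p = 0.112) or sgMETTL1.6 replicate 1 (adjusted p = 0.142). Over both guides the change of POLR3A was 0.22 (95% interval 0.12 to 0.32, adjusted p = 0.000938), and this call held when any library was left out.

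POLR3B (ENSG00000013503.9, chromosome 12, 106357658 to 106510198) was much scarcer than its partner, at 7.12 and 6.63 TPM with sgNS, 9.20 and 8.46 TPM with sgMETTL1.3 and 6.99 and 7.53 TPM with sgMETTL1.6. Only the sgMETTL1.3 libraries stood clear of the controls, and those of sgMETTL1.6 overlapped them. The log2 change was 0.32 ± 0.077 (SE) with sgMETTL1.3 (adjusted p = 0.00301) and 0.07 with sgMETTL1.6 (95% interval -0.10 to 0.24, adjusted p = 0.478). The guides differed by -0.25 (sgMETTL1.6 minus sgMETTL1.3, adjusted p = 0.0338), a call lost without sgMETTL1.3 replicate 1 (adjusted p = 0.196), sgMETTL1.3 replicate 2 (adjusted p = 0.0577) or sgMETTL1.6 replicate 1 (adjusted p = 0.163). It was also lost with quantile scaling (adjusted p = 0.102), median-ratio scaling (adjusted p = 0.0816) and a scale that leaves ribosomal protein genes out (adjusted p = 0.0662). The rise over both guides (0.19, adjusted p = 0.0228) was lost without sgNS replicate 2 (adjusted p = 0.18), sgMETTL1.3 replicate 1 (adjusted p = 0.0695) or sgMETTL1.6 replicate 2 (adjusted p = 0.053). The ratio of POLR3A to POLR3B in TPM was 3.39 ± 0.141 with sgNS, 3.26 ± 0.112 with sgMETTL1.3 and 3.59 ± 0.306 with sgMETTL1.6 (SD, n = 2). POLR3B overlaps the gene model AC079385.1 on the opposite strand by 14241 bases.

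POLR3C, POLR3F and POLR3G code for the trimer that joins the polymerase to TFIIIB at the start of a gene and helps open the DNA. These 3 partners moved apart. POLR3C (ENSG00000186141.8, chromosome 1, 145824088 to 145842505) held 49.3 and 51.0 TPM with sgNS, 49.4 and 48.1 TPM with sgMETTL1.3 and 42.7 and 40.5 TPM with sgMETTL1.6. The sgMETTL1.3 libraries overlapped the controls, and both sgMETTL1.6 libraries lay below all others. With sgMETTL1.6 it fell by 0.26 on the log2 scale (SE 0.048, adjusted p = 0.000484), which held whichever library was left out. With sgMETTL1.3 the change was -0.04 (95% interval -0.14 to 0.06, adjusted p = 0.481). The guides differed by -0.22 (adjusted p = 0.00619, and 0.0501 without sgMETTL1.3 replicate 1). The fall over both guides (-0.15, adjusted p = 0.00614) was lost without sgNS replicate 2 (adjusted p = 0.0793).

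POLR3F (ENSG00000132664.11, chromosome 20, 18467127 to 18484643) went the other way, from 23.3 and 23.5 TPM with sgNS to 26.6 and 25.1 TPM with sgMETTL1.3 and 27.1 and 25.7 TPM with sgMETTL1.6. All 4 guide libraries lay above the controls, and the guides overlapped each other. The log2 changes were 0.14 (adjusted p = 0.0449), 0.17 (adjusted p = 0.0215) and, over both guides, 0.15 (adjusted p = 0.0139). These calls were weak: without sgNS replicate 1 the adjusted p rose to 0.146, 0.0911 and 0.0831, and without sgNS replicate 2 to 0.116, 0.0724 and 0.0633. The single-guide calls were also lost without replicate 1 of that guide (adjusted p = 0.265 and 0.125). With sgMETTL1.3 the call was lost as well with quantile scaling (0.11, adjusted p = 0.0826), median-ratio scaling (0.10, adjusted p = 0.124) and a scale without ribosomal protein genes (0.09, adjusted p = 0.161). The ratio of POLR3C to POLR3F in TPM, of which no test was made, was 2.12 and 2.18 in the sgNS libraries, 1.85 and 1.92 with sgMETTL1.3 and 1.58 in each sgMETTL1.6 library. The groups did not overlap in that ratio. It was not planned beforehand and sets a gene that fell over both guides against one that rose. Its separation is therefore no evidence beyond the changes of the single genes. POLR3F overlaps DZANK1 on the opposite strand by 155 bases.

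POLR3G (ENSG00000113356.11, chromosome 5, 90471748 to 90514553) had the largest change of the 9 genes over both guides. This subunit is made in high amounts in stem cells and many tumours, whereas its paralogue POLR3GL is the form found in most tissues, and a polymerase carries one or the other. POLR3G held 6.24 and 6.0 TPM with sgNS, 7.15 and 7.35 TPM with sgMETTL1.3 and 9.06 and 8.83 TPM with sgMETTL1.6. The 3 groups did not overlap, and sgMETTL1.6 was highest. Relative to the mean of the controls, mean TPM was 1.18-fold with sgMETTL1.3 and 1.46-fold with sgMETTL1.6. On the log2 scale the changes were 0.21 ± 0.071 (SE, adjusted p = 0.0205) and 0.48 ± 0.071 (adjusted p = 0.000102), the scale understating the change of a gene this low. The guides differed by 0.27 (adjusted p = 0.0177). The sgMETTL1.6 call and that over both guides (0.35, adjusted p = 0.000318) held whichever library was left out. The sgMETTL1.3 call was lost without sgNS replicate 2 (adjusted p = 0.103), sgMETTL1.3 replicate 1 (adjusted p = 0.0526) or sgMETTL1.3 replicate 2 (adjusted p = 0.0958), and, at 0.18, without ribosomal protein genes (adjusted p = 0.0535). The difference between the guides was lost without sgMETTL1.3 replicate 1 (adjusted p = 0.0928), sgMETTL1.3 replicate 2 (adjusted p = 0.0611) or sgMETTL1.6 replicate 1 (adjusted p = 0.082).

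The paralogue POLR3GL (chromosome 1, 145964702 to 145978848) was the main form in these cells and did not pass the test, with 66.2 and 63.8 TPM in the sgNS libraries, 63.5 and 67.0 TPM with sgMETTL1.3 and 65.5 and 69.9 TPM with sgMETTL1.6. The groups overlapped, and its change over both guides was 0.03 (95% interval -0.06 to 0.12, adjusted p = 0.54). POLR3G therefore made up 8.60% ± 0.018 of the summed TPM of the pair with sgNS, 10.0% ± 0.161 with sgMETTL1.3 and 11.7% ± 0.662 with sgMETTL1.6 (SD, n = 2). The ratio of POLR3G to POLR3GL was 0.0943 and 0.0940 in the sgNS libraries, 0.113 and 0.110 with sgMETTL1.3 and 0.138 and 0.126 with sgMETTL1.6, with no overlap between groups. Its log2 change over both guides was 0.36, and 0.33 to 0.40 when 1 library was left out, with no test made. POLR3GL shares 13110 bases of its span with AC243547.3, a coding gene model on the same strand. POLR3G overlaps MBLAC2 on the opposite strand by 3021 bases and has 2 annotated pseudogenes (POLR3GP1, POLR3GP2). Reads of both genes could therefore be shared with other models.

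**Figure D2:**
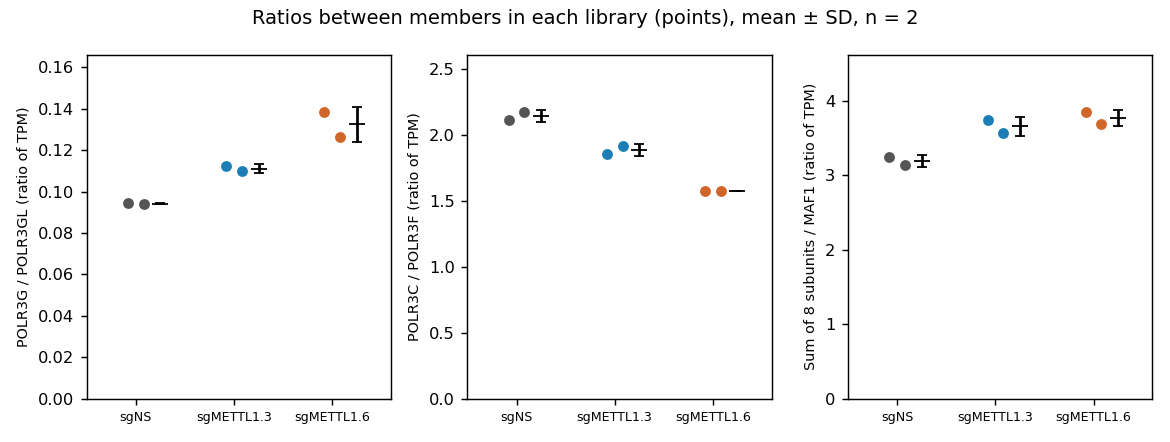
Ratios of TPM (vertical axes, from 0) of POLR3G to POLR3GL, of POLR3C to POLR3F and of the sum of the 8 subunits to MAF1, in the libraries of sgNS, sgMETTL1.3 and sgMETTL1.6. Points are single libraries, bars are mean ± SD (n = 2). The first ratio is lowest with sgNS (0.0943 and 0.0940) and highest with sgMETTL1.6 (0.138 and 0.126). The second, of a gene that fell over both guides to one that rose, runs the other way.

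POLR3D and POLR3E code for a pair of subunits that act in initiation and termination. POLR3D (ENSG00000168495.12, chromosome 8, 22245104 to 22254600) held 45.5 and 48.7 TPM with sgNS, 49.9 and 47.3 TPM with sgMETTL1.3 and 42.7 and 40.9 TPM with sgMETTL1.6. Only sgMETTL1.6 lay below the controls. It fell there by 0.17 on the log2 scale (SE 0.051, adjusted p = 0.0149), a call lost without sgNS replicate 2 (adjusted p = 0.145) or sgMETTL1.6 replicate 2 (adjusted p = 0.0797). The change was 0.04 with sgMETTL1.3 (95% interval -0.07 to 0.15, adjusted p = 0.48) and -0.06 over both guides (adjusted p = 0.248). The guides differed by -0.21 (adjusted p = 0.0115), a call lost without sgMETTL1.3 replicate 1 (-0.17). It was also lost with quantile scaling (adjusted p = 0.0553), no filter on low values (adjusted p = 0.14) or no variance trend (adjusted p = 0.0501).

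POLR3E (ENSG00000058600.15, chromosome 16, 22297375 to 22335103) had the narrowest range of the 9 genes, 31.6 to 35.2 TPM, a ratio of 1.11 between the highest library and the lowest. It held 33.2 and 31.6 TPM with sgNS, 33.7 and 35.2 TPM with sgMETTL1.3 and 32.4 and 33.2 TPM with sgMETTL1.6. The change was 0.09 with sgMETTL1.3 (95% interval -0.02 to 0.20, adjusted p = 0.164) and 0.02 with sgMETTL1.6 (95% interval -0.09 to 0.13, adjusted p = 0.796). Both sgMETTL1.3 libraries lay above the controls and those of sgMETTL1.6 overlapped them, but neither change passed the test.

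POLR3E lies next to a gene that Pol III itself transcribes, and its upstream sequence is shown for that reason. RefSeq places TRL-AAG2-4, a leucine tRNA gene, at 22297140 to 22297221 of chromosome 16 in GRCh38.p14. It ends 154 bases before the first base of POLR3E in GENCODE 29. Of 19969 protein-coding genes, 44 (0.22%) had 1 of 443 placed tRNA genes within 1000 bases of their start, and POLR3E was the only one of these 9 genes. The 216 bases before POLR3E, chr16:22297159-22297374 on the plus strand of GRCh38.p14, from RefSeq, are given 5′ to 3′. The first 63 of them belong to the tRNA gene, and the capitals mark its B box, the internal element that TFIIIC binds.
POLR3E upstream: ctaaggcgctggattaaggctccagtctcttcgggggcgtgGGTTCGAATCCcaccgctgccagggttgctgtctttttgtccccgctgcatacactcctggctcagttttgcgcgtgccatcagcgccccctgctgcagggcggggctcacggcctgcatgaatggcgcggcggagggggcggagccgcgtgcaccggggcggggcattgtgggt
The capital letters, searched on both strands with any base allowed at the eighth, begin 175 bases before POLR3E in the same orientation. They occur in 26 (0.074%) of 35116 RefSeq windows of 250 bases before a start. This motif was chosen after the sequence was seen. TRL-AAG2-4 itself is not read by poly(A) libraries.

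Promoter windows were matched for 6 of the 9 genes and for POLR3GL, and 5 other motifs were searched on both strands in the 250 bases before each RefSeq start. These starts can lie inside the GENCODE gene: the windows of POLR3F and of 1 start each of POLR3B and POLR3C held 0 bases before it. The MYC site CACGTG, which is in 6.34% of all windows, was in those of POLR3A and POLR3C, and in POLR3A it was not wholly before the GENCODE start. The ETS site CCGGAAGT (3.42% of all) was before POLR3A by either start, and the palindromic NRF1 site (1.03%) was in a POLR3B window but not wholly before the GENCODE start. The ATF4 site TGATGNAA (3.14%) and the CRE TGACGTCA (1.65%) were in none of the 9 windows.

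POLR3K (ENSG00000161980.5, minus strand of chromosome 16, 46407 to 53628), a small subunit needed to cleave the nascent RNA and to terminate, was the most abundant of the 9 and the one with the lowest p. It stood at 71.46 TPM in each sgNS library, 87.5 and 87.7 TPM with sgMETTL1.3 and 90.7 and 86.5 TPM with sgMETTL1.6. The control and guide libraries were well apart, and the guides overlapped. Mean TPM was 1.23-fold and 1.24-fold that of the controls. The log2 changes were 0.29 ± 0.041 (SE, adjusted p = 4.88e-05) and 0.31 ± 0.041 (adjusted p = 4.39e-05), and both held under all 15 alternative settings. The difference between the guides was 0.02 (95% interval -0.07 to 0.10, adjusted p = 0.813). POLR3K overlaps SNRNP25 on the opposite strand by 619 bases and has 2 annotated pseudogenes, so part of its reads could be shared.

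MAF1 (ENSG00000179632.9, chromosome 8, 144104499 to 144107611) held 79.8 and 83.4 TPM with sgNS, 78.1 and 80.6 TPM with sgMETTL1.3 and 72.3 and 72.7 TPM with sgMETTL1.6. The sgMETTL1.6 libraries lay below all others, and those of sgMETTL1.3 overlapped the controls. With sgMETTL1.6 it fell by 0.17 on the log2 scale (SE 0.042, adjusted p = 0.00454, and 0.058 without sgNS replicate 2). With sgMETTL1.3 the change was -0.04 (95% interval -0.13 to 0.05, adjusted p = 0.434). The guides differed by -0.13 (adjusted p = 0.0419), but that call was lost without any 1 of the 6 libraries (adjusted p from 0.0561 to 0.209) and with quantile scaling (adjusted p = 0.173), median-ratio scaling (adjusted p = 0.179) or no ribosomal protein genes (adjusted p = 0.123). The fall over both guides (-0.10, adjusted p = 0.0244) was lost without sgNS replicate 2 (adjusted p = 0.239) or sgMETTL1.3 replicate 1 (adjusted p = 0.072). The whole 3113-base span of MAF1 lies inside SHARPIN on the opposite strand. The library kit marks strand per the labels, but whether counting used strand was not given in the sources used here.

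Polymerase mRNA relative to that of its repressor was higher in the guide libraries. The summed TPM of the 8 subunits was 259.6 and 262 with sgNS, 293 and 287 with sgMETTL1.3 and 278 and 268 with sgMETTL1.6. Divided by MAF1, that sum was 3.25 and 3.14 with sgNS, 3.75 and 3.57 with sgMETTL1.3 and 3.85 and 3.69 with sgMETTL1.6. The guide libraries overlapped each other and lay above both controls. The sum leaves out POLR3GL and CRCP, and POLR3K is its largest part. With sgMETTL1.6 the mean sum went from 261 to 273 TPM and MAF1 from 81.6 to 72.5 TPM. POLR3K alone went from 71.5 to 88.6 TPM there, a larger rise than that of the sum. No test was made of these sums.

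The levels of the 9 genes fell into tiers. POLR3K and MAF1 led at means of 82.6 and 77.8 TPM over the 6 libraries, and their ranges overlapped, POLR3K being the higher in the 4 guide libraries. POLR3C (46.8 TPM) and POLR3D (45.8 TPM) followed and overlapped. POLR3E came next at 33.2 TPM, clear of its neighbours, then POLR3A (26.0 TPM) and POLR3F (25.2 TPM), which overlapped. POLR3B (7.66 TPM) and POLR3G (7.44 TPM) were the lowest, overlapped each other and were below the other 7 genes in every library. They also varied most, with ratios of 1.39 and 1.51 between the highest library and the lowest. Among all genes tested, POLR3K stood at the 80.3 percentile of mean level and POLR3G at the 20.4 percentile.

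The comparison of each guide with control showed which changes the guides had in common. Both comparisons use the same control libraries. With sgMETTL1.3, 5 of the 9 genes rose (POLR3A, POLR3B, POLR3F, POLR3G and POLR3K), beside 34.3% of all genes tested, and 0 fell, beside 24.2%. There were also 0 falls at an unadjusted limma p under 0.05, a limit at which the share of all genes was not computed. At the adjusted limit, calls either way covered 58.5% of all genes tested with sgMETTL1.3. In 6 of the 9 the libraries did not overlap the controls, beside 79.9%. With sgMETTL1.6, 4 rose (POLR3A, POLR3F, POLR3G and POLR3K), beside 25.7%, and 3 fell (POLR3C, POLR3D and MAF1), beside 25.3%. Calls either way covered 51.0% there, and 7 of the 9 did not overlap the controls, beside 74.8%. The sgMETTL1.3 count was 3 without sgNS replicate 2 or sgMETTL1.3 replicate 1, and 3 without ribosomal protein genes. For sgMETTL1.6, 2 rose without sgNS replicate 1, sgNS replicate 2 or sgMETTL1.6 replicate 1, and 1 fell without sgNS replicate 2.

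**Figure D3:**
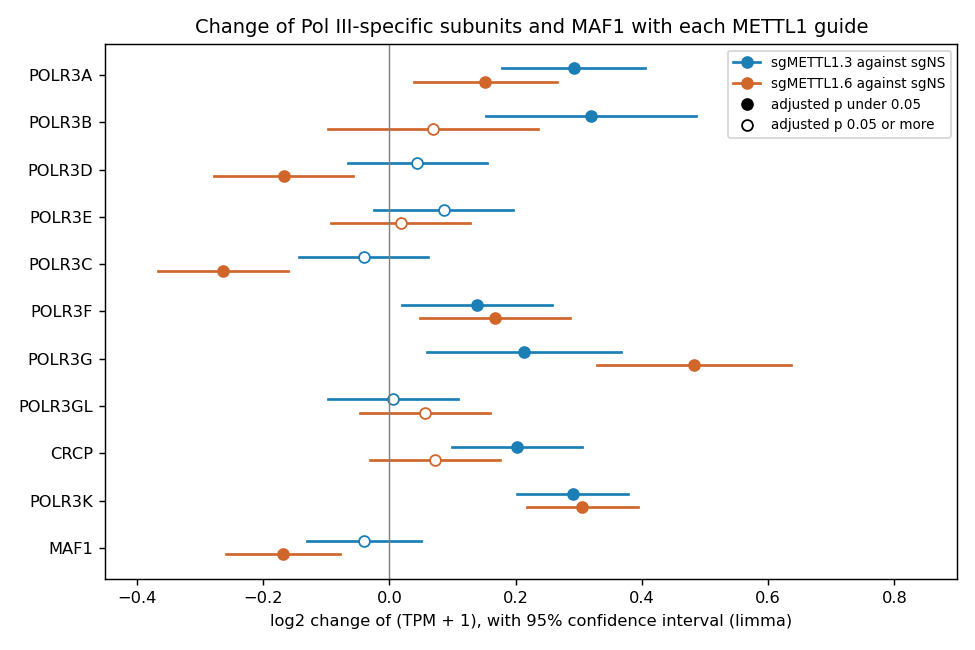
Log2 change of TPM + 1 (horizontal axis) of the 9 genes, POLR3GL and CRCP with sgMETTL1.3 (blue) and sgMETTL1.6 (orange) against sgNS. Points are limma estimates, filled where the adjusted p was under 0.05, and lines are 95% confidence intervals; POLR3K is at 0.29 and 0.31, POLR3G at 0.21 and 0.48, and POLR3C at -0.04 and -0.26.

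Tested directly against each other, the guides differed in 5 of the 9 genes, beside 23.0% of all genes tested, and did not overlap in 7, beside 62.5%. POLR3G was higher with sgMETTL1.6 (beside 7.23% of all genes tested), and POLR3B, POLR3C, POLR3D and MAF1 were lower (beside 15.8%). Over all genes this comparison depended on scaling: 31.4% of its calls were higher as deposited, 54.8% with quantile scaling, 58.9% with median-ratio scaling and 49.1% when ribosomal protein genes were left out. Of the 4 lower genes, 1 remained with quantile scaling and 2 with each of the other scalings, POLR3C among them each time. The lower count was 0 without sgMETTL1.3 replicate 1 and 2 without sgMETTL1.3 replicate 2 or sgMETTL1.6 replicate 1, and the higher count was 0 without any of those 3 libraries.

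CRCP codes for a subunit of the stalk of Pol III, which takes part in initiation. It held 46.0 and 49.1 TPM with sgNS, 55.9 and 53.8 TPM with sgMETTL1.3 and 50.4 and 49.6 TPM with sgMETTL1.6. The sgMETTL1.6 libraries lay just above the controls, and those of sgMETTL1.3 were highest. The log2 change passed the test with sgMETTL1.3 (0.20, adjusted p = 0.00265) but not with sgMETTL1.6 (0.07, adjusted p = 0.228). Over both guides CRCP rose by 0.14 (adjusted p = 0.0117, and 0.185 without sgNS replicate 1). CRCP shares most of its span with the coding gene model AC068533.4 on the same strand. Of the 7 subunits that Pol III shares with other polymerases, 6 rose over both guides and POLR1D alone fell, the median being 0.14. Among all genes tested 32.6% rose and 26.8% fell. POLR2L rose from 55.3 ± 2.55 to 81.6 ± 4.59 and 82.3 ± 6.24 TPM (SD, n = 2, log2 change 0.56, adjusted p = 7.85e-07), and POLR1D fell from 256 ± 4.34 to 208 ± 0.947 and 212 ± 4.96 TPM (log2 change -0.29, adjusted p = 3.01e-06). POLR2F rose by 0.29 (adjusted p = 0.00173).

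Over both guides, the factors that bring Pol III to its genes rose more often than they fell. In TFIIIB, BRF1, which serves tRNA genes, went from 14.5 ± 0.509 to 18.6 ± 1.17 and 18.3 ± 0.757 TPM (SD, n = 2, log2 change 0.33, adjusted p = 0.000195). BRF2, which serves genes with upstream promoters, had a change of 0.17 (adjusted p = 0.00438, and 0.0548 without sgNS replicate 1). BDP1 (0.11, adjusted p = 0.0689) and TBP (0.09, adjusted p = 0.0857) did not pass. BDP1 passed without sgMETTL1.6 replicate 2 (adjusted p = 0.0214), and both passed as higher with the replicate number as a block (adjusted p = 0.0274 and 0.0403). Thus over both guides 2 of 4 rose and 0 fell, beside 32.6% and 26.8% of all genes tested. At an unadjusted limma p under 0.05, 3 were higher and 0 lower. The share of all genes at that unadjusted limit was not computed. With sgMETTL1.3, 3 rose, beside 34.3% of all genes tested, and 0 fell. With sgMETTL1.6 only BRF1 rose, beside 25.7%, and 0 fell, BRF2 having an adjusted p of 0.0827.

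TFIIIC, which binds the A and B boxes inside tRNA genes, and TFIIIA, which serves the smallest ribosomal RNA, were taken as 1 list. Over both guides 5 of 7 rose and 0 fell, beside 32.6% and 26.8% of all genes tested. The median was 0.22, beside 0.02 for all genes tested. At an unadjusted limma p under 0.05 the counts were 5 and 1, again with no share of all genes computed. With sgMETTL1.3, 5 rose and 0 fell. With sgMETTL1.6, 5 rose and 1 fell (GTF3C3, adjusted p = 0.0391). GTF3C6 showed the largest change, from 189 ± 0.410 to 272 ± 5.52 and 267 ± 0.608 TPM (log2 change 0.51, adjusted p = 8.76e-09). GTF3C1, GTF3C2 and GTF3C4 rose by 0.22, 0.22 and 0.30. Over both guides GTF3C5 (0.04, adjusted p = 0.422) and GTF3C3 did not pass. GTF3C3 stood at -0.10 (adjusted p = 0.0525) and passed as lower without sgMETTL1.3 replicate 1 (adjusted p = 0.0315) or sgMETTL1.6 replicate 1 (adjusted p = 0.0237), and with quantile (adjusted p = 0.0252) or median-ratio scaling (adjusted p = 0.024) or no ribosomal protein genes (adjusted p = 0.0159), and with the replicate block (adjusted p = 0.0166). GTF3A, the gene of TFIIIA, was by far the most abundant of the list, at 1032 ± 0.926, 1241 ± 0.495 and 1223 ± 15.8 TPM (log2 change 0.26, adjusted p = 5.96e-07). SNAPc, the complex that binds promoters of small nuclear RNA genes, went both ways. With sgMETTL1.3, SNAPC2, SNAPC4 and SNAPC5 rose and SNAPC1 fell, SNAPC3 not passing (adjusted p = 0.0715). With sgMETTL1.6, SNAPC4 rose and SNAPC3 fell, while SNAPC2 (adjusted p = 0.23) and SNAPC1 (adjusted p = 0.0726) did not pass. Over both guides SNAPC4 (0.30) and SNAPC2 (0.27) were higher and SNAPC1 (-0.20) and SNAPC3 (-0.17) lower, with SNAPC5 at 0.08 (adjusted p = 0.241). SNAPC2 was lost without sgNS replicate 1 (adjusted p = 0.123) and SNAPC3 without sgNS replicate 2 (adjusted p = 0.0606).

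Regulators that act on MAF1 or TFIIIB, 13 of 14 matched, mostly fell over both guides. There 9 were lower and 1 higher, beside 26.8% and 32.6% of all genes tested, with a median of -0.12. MLST8, a subunit of mTORC1, fell the most, from 98.0 and 104.5 TPM with sgNS to 52.5 and 56.7 TPM with sgMETTL1.3 and 42.6 and 49.9 TPM with sgMETTL1.6 (log2 change -0.999, adjusted p = 1.18e-08). MYC, an activator of Pol III genes, went from 384 ± 4.07 to 318 ± 2.21 and 310.1 ± 1.38 TPM (log2 change -0.29, adjusted p = 1.01e-06). RBL1, a relative of the Pol III repressor RB1, fell by 0.27 on the log2 scale (adjusted p = 0.000173). MTOR, another gene of mTORC1, was the 1 called higher (log2 change 0.14, adjusted p = 0.00729). It passed with sgMETTL1.3 (0.23, adjusted p = 0.0006) but not with sgMETTL1.6 (0.05, adjusted p = 0.413). RPTOR, also of mTORC1, did not pass over both guides (-0.10, adjusted p = 0.0589) and was lower with sgMETTL1.6 (-0.23, adjusted p = 0.00168). Repressors and activators are mixed on this list.

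Genes that process and export the tRNA precursors, 24 of 27 matched, mostly rose over both guides. There 15 were higher and 3 lower, beside 32.6% and 26.8% of all genes tested, with a median of 0.15. POP1, a subunit of RNase P, which trims the front end of the precursor, rose from 14.1 ± 0.757 to 23.9 ± 1.08 and 24.0 ± 0.106 TPM (SD, n = 2, log2 change 0.72, adjusted p = 9.35e-08). ELAC2, the nuclease that trims the rear end, rose by 0.51 (adjusted p = 3.14e-07). XPOT, the exportin that carries tRNA out of the nucleus, was the exception of largest size, at 443 and 439 TPM with sgNS, 303 and 288 TPM with sgMETTL1.3 and 288 and 271 TPM with sgMETTL1.6 (log2 change -0.62, adjusted p = 5.29e-09).

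The other nuclear polymerases were set beside Pol III. Of 10 matched Pol I subunits and factors, 5 rose and 1 fell (median 0.11), with POLR1A at 0.40, CD3EAP at 0.57 and POLR1B at 0.25. Of 8 Pol II-specific subunits, 6 rose and 1 fell (median 0.26), with POLR2J at 0.33, POLR2A at 0.30 and POLR2C at 0.34. The 9 members (5 higher, median 0.15) lay between these lists. They include MAF1, which is not a subunit, and leave out POLR3GL and CRCP, so the sets are not alike. No test of a difference between the polymerases was made. All counts in this paragraph are over both guides. List counts over both guides stand beside 32.6% of all genes higher and 26.8% lower at the adjusted limit. Those for 1 guide stand beside 34.3% and 24.2% with sgMETTL1.3 and 25.7% and 25.3% with sgMETTL1.6.

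**Figure D4:**
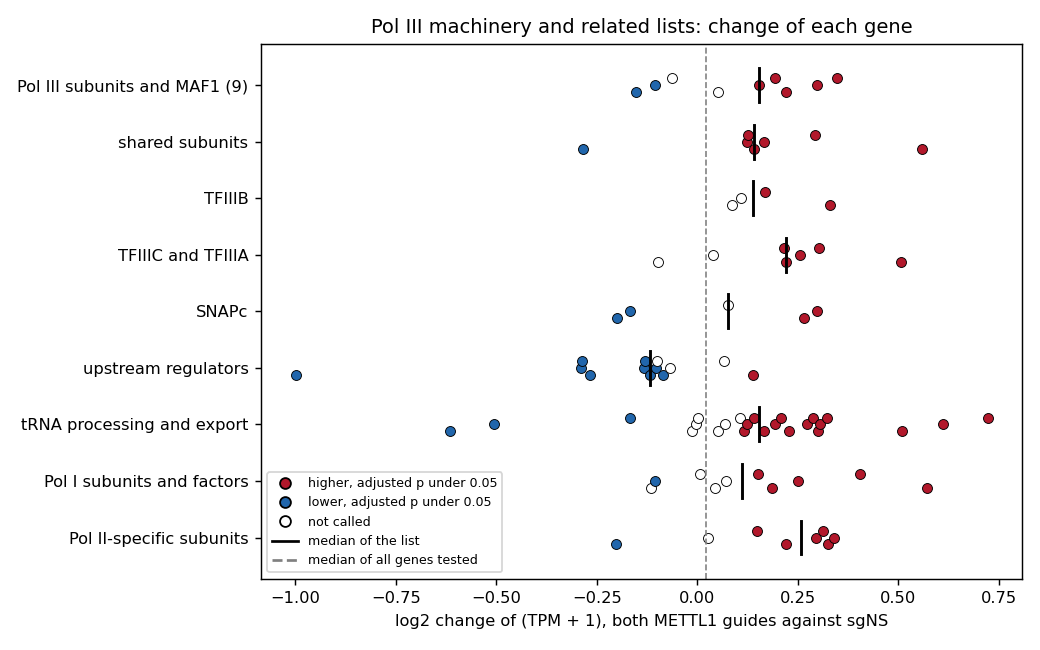
Log2 change of TPM + 1 over both METTL1 guides against sgNS (horizontal axis) for each gene of the Pol III lists and the lists beside them. Red points are called higher, blue points lower and white points not called, black bars are list medians and the dashed line is the median of all genes tested (0.02); upstream regulators have a median of -0.12 and the other lists lie above 0.

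The 5 genes whose log2 levels over the 6 libraries followed MAF1 most closely were ELP5, DNM2, VAMP2, ABR and KAT7, with Pearson's r from 0.989 to 0.995. For POLR3G they were GCSH, PTMA, ATP5L, COX7B and USMG5, with r from 0.994 to 0.997. With 3 groups and 6 libraries such values are common: 122 genes had an r above 0.95 with MAF1 and 115 with POLR3G. MAF1 ran with POLR3C (r = 0.93) and POLR3D (r = 0.82) and against POLR3G (r = -0.94). POLR3A ran with POLR3B (r = 0.87), and POLR3K with POLR3F (r = 0.93). These correlations describe 6 libraries that share a scale and a group structure.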

How the data were processed

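The authors deposited 1 table of TPM, made with RSEM 1.2.31 on GRCh38 per the submitters' processing notes. The aligner, annotation and strand setting were not given in the sources used here. RSEM divides reads among similar transcripts by a model, and TPM is a share, so abundant genes shift all others. Column names identified the samples, with 0 left over. Tests used limma 3.58.1 (R 4.3.3) on log2(TPM + 1), with 3 groups in 1 model and a variance trend (3 residual and 9.84 prior degrees of freedom), a mean of at least 1 TPM and Benjamini-Hochberg adjustment over 10911 genes. The script was tested on simulated data. The 9 members and the lists were chosen with earlier results of these data known. The 9 lists beside the members held 81 tested genes, called pathway genes below. Over both guides 44 of these 81 were higher and 17 lower, beside 32.6% and 26.8% of all genes tested. The text names the members, POLR3GL, CRCP and the TFIIIB, TFIIIC, TFIIIA and SNAPc genes. It also names the 3 genes of lowest p in each other list, MTOR and RPTOR, and the 5 genes most like MAF1 and POLR3G. List genes without a row are not analysed here, and 1 gene that the rule names is not reported here. Positions are from GENCODE 29 (GRCh38), and promoters and tRNA genes from RefSeq (GRCh38.p14). Alternatives were other pseudocounts, filters and scalings, no variance trend, the replicate number as a block, and leaving out each library.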

Additional observations from a re-analysis of the deposited data

Results flagged for a closer look

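In 5 of the 9 genes the guides differed from each other by the limma test of the difference itself (sgMETTL1.6 minus sgMETTL1.3). The log2 difference was 0.27 for POLR3G (adjusted p = 0.0177), higher in both sgMETTL1.6 libraries. It was -0.25 for POLR3B (adjusted p = 0.0338), -0.22 for POLR3C (adjusted p = 0.00619), -0.21 for POLR3D (adjusted p = 0.0115) and -0.13 for MAF1 (adjusted p = 0.0419), each lower in both sgMETTL1.6 libraries. POLR3C passed under 13 of 15 alternative settings, POLR3D and POLR3G under 11, POLR3B under 8 and MAF1 under 4.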

How the results depend on the processing

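With 2 libraries a group and no depth, the smallest changes rest on single libraries. Of the member values under 15 alternatives, 467 kept direction and side of the threshold, 64 lost a call, 1 gained one and 8 changed sign, all 8 among uncalled values; where no cause is shown, the cause was not tested. With 1 library left out, members higher ranged from 3 to 5 over both guides, 3 to 5 with sgMETTL1.3, 2 to 4 with sgMETTL1.6 and 0 to 1 between the guides. Members lower ranged from 0 to 2, stayed at 0, and ranged from 1 to 3 and 0 to 3. Pathway genes ranged from 36 to 44 higher (44 with all libraries) and 11 to 16 lower (17 with all). With no filter on low values, 18806 genes were tested, and 3 members were higher and 1 lower over both guides, 2 higher with sgMETTL1.6, 0 higher and 0 lower between the guides, and 9 pathway genes lower. Without the variance trend 1 was lower over both guides and 2 between the guides. Between the guides 1 was lower with quantile scaling, 2 with median-ratio scaling and 2 on a scale without ribosomal protein genes, on which 3 rose with sgMETTL1.3. Sign changes were POLR3D with sgMETTL1.3 (-0.0007 with quantile scaling, -0.0023 without ribosomal protein genes, -0.0027 to 0.0910 with 1 library left out, lowest without sgNS replicate 1), POLR3E with sgMETTL1.6 (-0.0169 to 0.0523, below 0 without sgNS replicate 2 and, at -0.0005, without sgMETTL1.6 replicate 2), the guide difference of POLR3F (-0.0134 to 0.0716, below 0 without sgMETTL1.3 replicate 2 and, at -0.0091, without sgMETTL1.6 replicate 1) and POLR3K (-0.0190 to 0.0496, below 0 without sgMETTL1.6 replicate 1), and, over both guides without sgNS replicate 1, GTF3C5 (-0.0013, up to 0.0777) and SNAPC5 (-0.0051, up to 0.1582). With a library left out, limma takes the lone one to vary like the other groups. Labels do not say that replicate numbers pair the libraries. Replicate differences correlated at -0.005, 0.21 and 0.15 between groups. The replicate block left 5 higher and 2 lower over both guides, and 5 lower between the guides, POLR3A being added (adjusted p = 0.0321). Pathway genes were then 47 higher and 20 lower, BDP1, TBP and GTF3C3 being among those added.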
